A study of Mus musculus with 20 samples.

Results

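The step from the first postnatal week to adulthood in the footpads of wild-type (WT) mice is described by 4 of the 20 arrays of the series: 2 of footpad skin at postnatal day 5 (P5) and 2 of adult footpads at postnatal day 56, chosen by the sample titles. Both groups are C57BL6/J mice with no mutation or treatment given, and each array is a separate biological replicate per the labels. How many animals went into a sample is not given in the sources used here. Where genotype is compared, the Tabby groups are mutant mice of the same labelled strain at P5 and as adults, 2 arrays each. Where the earlier course is given, it comes from the WT groups before birth (E17.5) and at postnatal days 1 and 3 (P1 and P3), also 2 arrays each.

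The mouse footpad is hairless, thickly cornified skin, and it is where the mouse carries its eccrine sweat glands, the subject of the study by its title. Gland buds form from the epidermis before birth, and after birth the ducts lengthen, the deep ends coil and the secretory part matures. Ectodysplasin A, a ligand of the tumour necrosis factor family, is needed for the buds to form, and Tabby mice, in which its gene is mutated, have footpads without these glands. Adult footpad skin also differs from that of a pup in its growth, its cornified layer and its matrix, and the whole skin sample was measured, so that fewer cells of a type and less RNA per cell cannot be told apart.

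On each array the footpad RNA carried the Cy3 dye and a common reference, pooled from mouse cell lines and embryonic stem cells, carried Cy5. The value of a probe is the log2 ratio of footpad over reference, and a difference is the mean of the adult arrays minus the mean of the P5 arrays. The WT P5 arrays had 27705 and 29287 of 42006 probes with a footpad signal well above background and the WT adult arrays 30269 and 28302. The replicates correlated across probes at r = 0.979 for WT P5 and 0.974 for WT adult, and the 2 arrays of a group differed with an SD over probes of 0.358 and 0.418 on the log2 scale. For Tabby adult it was 0.547, the widest of the 10 groups, and these arrays had 29865 and 27195 probes well above background. Each stage was hybridised on a slide of its own, with P1, P3 and P5 scanned on 1 day and the adult slide on another, so that the age and the slide or scan day cannot be told apart. The probes carry Z-number identifiers and their 60-base sequences but no gene names, so that the tissue label could not be set against marker genes, and most results below are given by probe.

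Adult WT footpads differed from those at P5 in most of the tested probes. Of 32124 probes tested, 19050 (59.3%) differed between adult and P5 footpads at an adjusted p under 0.05 (limma with Benjamini-Hochberg adjustment, as for every adjusted p here), 9935 (30.9%) higher in adults and 9115 (28.4%) lower. The falls were the larger changes. The median called fall was 1.91-fold and the median called rise 1.65-fold. At least 2-fold, 3241 probes (10.1%) were higher and 4270 (13.3%) lower. At least 4-fold, 647 (2.01%) were higher and 1582 (4.92%) lower. These folds are those of the log ratio, also for probes measured at 1 of the ages alone. Of the 19050 called probes, 197 were well above background on no WT array of either age. Both adult arrays lay above both P5 arrays for 13935 probes (43.4%) and below them for 12132 (37.8%). The median difference over all tested probes was 0.06, and 0.17 with the footpad channel alone.

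**Figure D1:**
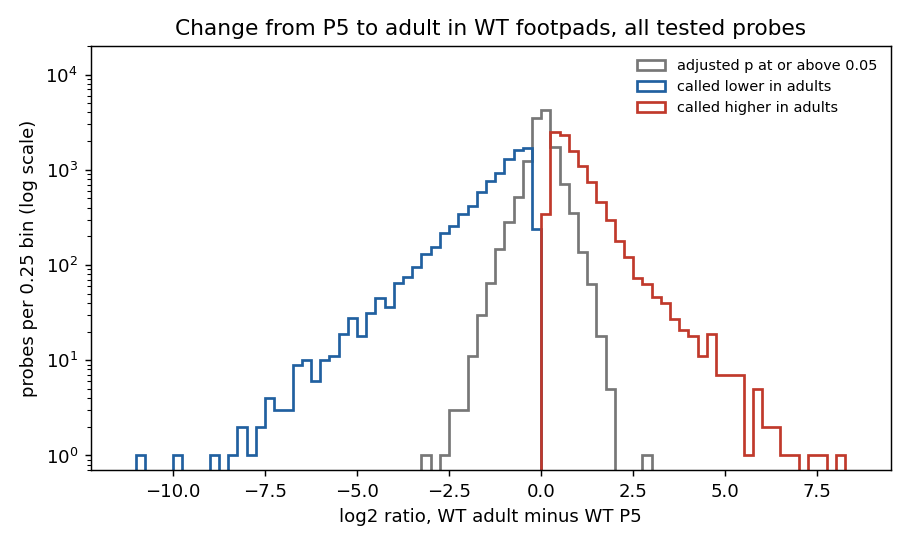
Number of probes (log scale) by the log2 difference WT adult minus WT P5, in bins of equal width, for probes called lower, called higher and not called. The called falls reach -11.0 and the called rises 8.24, and the fall side holds more probes beyond 4-fold, 1582 against 647.

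The differences came from the footpad channel more than from the reference. The same WT adult and P5 arrays differed with an SD over probes of 1.28 in the footpad channel and of 0.483 in the reference channel, each centred on its array median. Tested alone, the reference channel gave 1640 called probes (5.11%). Of the 7511 probes called at least 2-fold, 6918 differed at least 2-fold in the same direction with the footpad channel alone, 28 had the opposite sign there, and 439 had a reference that itself differed at least 2-fold.

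Among the probes measured at both ages, the 12 with the largest fall from P5 to adult had log ratios 89.5- to 492-fold lower, with adjusted p of 0.000588 or less. In 6 of the 12 only 1 adult array was well above background, so that the size of these falls is less certain than their direction. The last 30 bases of 4 of them, bases 31 to 60 of the probe, are given here because no other name identifies these transcripts. Capitals mark AATAAA or ATTAAA, the hexamers of the polyadenylation signal, where these letters occur.
Z00034035-1: tgctaccacgctatctaagaaccccttcct
Z00025746-1: tgactctgtaaatggtcctcaaaacgtgtg
Z00037787-1: atacttttttaagccacagttttaacttag
Z00026692-1: cttagccagaggAATAAAgtgaccattata

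Z00034035-1 had log2 ratios of 3.31 and 3.35 at P5 and of -5.49 and -5.73 in adults, a difference of -8.94 ± 0.08 (SE, adjusted p = 1.31e-14). Its earlier WT means were 4.39 at E17.5, 4.59 at P1 and 3.98 at P3. The transcript was thus high through every stage up to P5 and low on both adult arrays, where its signal was still well above background. Z00025746-1 had 4.66 and 4.69 at P5 and -4.18 and -3.19 in adults, a difference of -8.36 ± 0.39 (SE, adjusted p = 6.33e-09). Z00026280-1 had 1.56 and 1.63 at P5 and -5.20 and -5.52 in adults, a difference of -6.95 ± 0.21 (SE, adjusted p = 2.92e-10). For both of these, 1 of the adult arrays was well above background.

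Z00037787-1 had log2 ratios of 2.75 and 2.82 at P5 and of -3.95 and -3.97 in adults, a difference of -6.74 ± 0.26 (SE, adjusted p = 1.55e-09). Its WT mean at E17.5, 5.82, was well above that at P5. Z00026692-1 had 6.92 and 6.73 at P5 and 0.26 and 0.08 in adults, a difference of -6.65 ± 0.26 (SE, adjusted p = 1.55e-09). Z00074216-1 had 2.78 and 2.85 at P5 and -3.76 and -3.63 in adults, a difference of -6.51 ± 0.09 (SE, adjusted p = 1.05e-12). In each of them the adult arrays lay below all earlier WT arrays, as in 12 of the 12. In 6 of the 12 the E17.5 mean was at least 2-fold above that of P5. The wider errors belonged to Z00022471-1 and Z00025964-1. Z00022471-1 had 10.36 and 9.80 at P5 and 3.78 and 3.06 in adults (-6.66 ± 1.08, SE, adjusted p = 0.000204). Z00025964-1 had 6.13 and 6.02 at P5 and -0.60 and -0.54 in adults (-6.64 ± 1.24, SE, adjusted p = 0.000588). Earlier WT arrays of Z00025964-1 gave -0.03 and 5.46 at E17.5, 0.17 and 0.17 at P1 and 5.66 and 5.56 at P3. Its adult values were thus nearer to those of P1 than to those of P3 or P5.

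The 12 probes with the largest rise had log ratios 33.0- to 201-fold higher in adults, with adjusted p of 9.9e-06 or less. In 5 of the 12 only 1 P5 array was well above background, Z00026161-1, Z00075865-1, Z00031175-1, Z00023450-1 and Z00033551-1, among them both ends of this range. The last 30 bases of 5 of them are shown for the same reason, the last being that of the rise that differed between the genotypes.
Z00026161-1: ctgatggagctctatggccgaaaagcagat
Z00022843-1: atcatttgtaaagccttgctccacagcttt
Z00070340-1: ttgatgcttcttggcttcaacctgttgact
Z00049267-1: ctggtttgcagcggggttagggctcagttg
Z00023356-1: gactctgaaatccatgtgttgtgttgacca

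Z00026161-1 had log2 ratios of -3.72 and -4.71 at P5 and of 3.13 and 3.74 in adults, a difference of 7.65 ± 0.41 (SE, adjusted p = 1.97e-08). Its WT means were 4.67 at E17.5, -6.18 at P1 and -4.88 at P3. It was high before birth, low at the 3 ages after birth and high again in adults, and it is the 1 probe of the 12 whose adult arrays did not lie above all 8 earlier WT arrays. Z00031175-1 and Z00033551-1 also had a higher mean at E17.5 (1.66 and 0.41) than at P5.

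Z00022843-1 had log2 ratios of -4.63 and -4.35 at P5 and of 3.0 and 2.6 in adults, a difference of 7.29 ± 0.15 (SE, adjusted p = 2.06e-11). Its WT means at E17.5, P1 and P3 were -5.61, -3.62 and -4.58. Z00070340-1 had -2.26 and -2.15 at P5 and 3.94 and 4.42 in adults, a difference of 6.38 ± 0.16 (SE, adjusted p = 7.55e-11). In both, the signal was well above background on all 4 arrays. The means of Z00070340-1 at E17.5, P1 and P3 were -4.56, -1.92 and -2.99, so that both also had lower values at E17.5 than at P1. Z00074506-1 had -2.18 and -1.90 at P5 and 3.96 and 4.40 in adults (6.22 ± 0.17, SE, adjusted p = 1.3e-10). Z00049267-1 had 0.13 and -0.18 at P5 and 5.71 and 6.07 in adults (5.92 ± 0.27, SE, adjusted p = 5.29e-09), after a mean of 2.01 at P1. Z00074008-1 had -3.35 and -3.02 at P5 and 2.12 and 2.37 in adults (5.43 ± 0.21, SE, adjusted p = 1.76e-09), after a mean of 0.05 at P1. These last 2 had a higher mean at P1 than at E17.5, P3 or P5, and their highest values in adults.

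**Figure D2:**
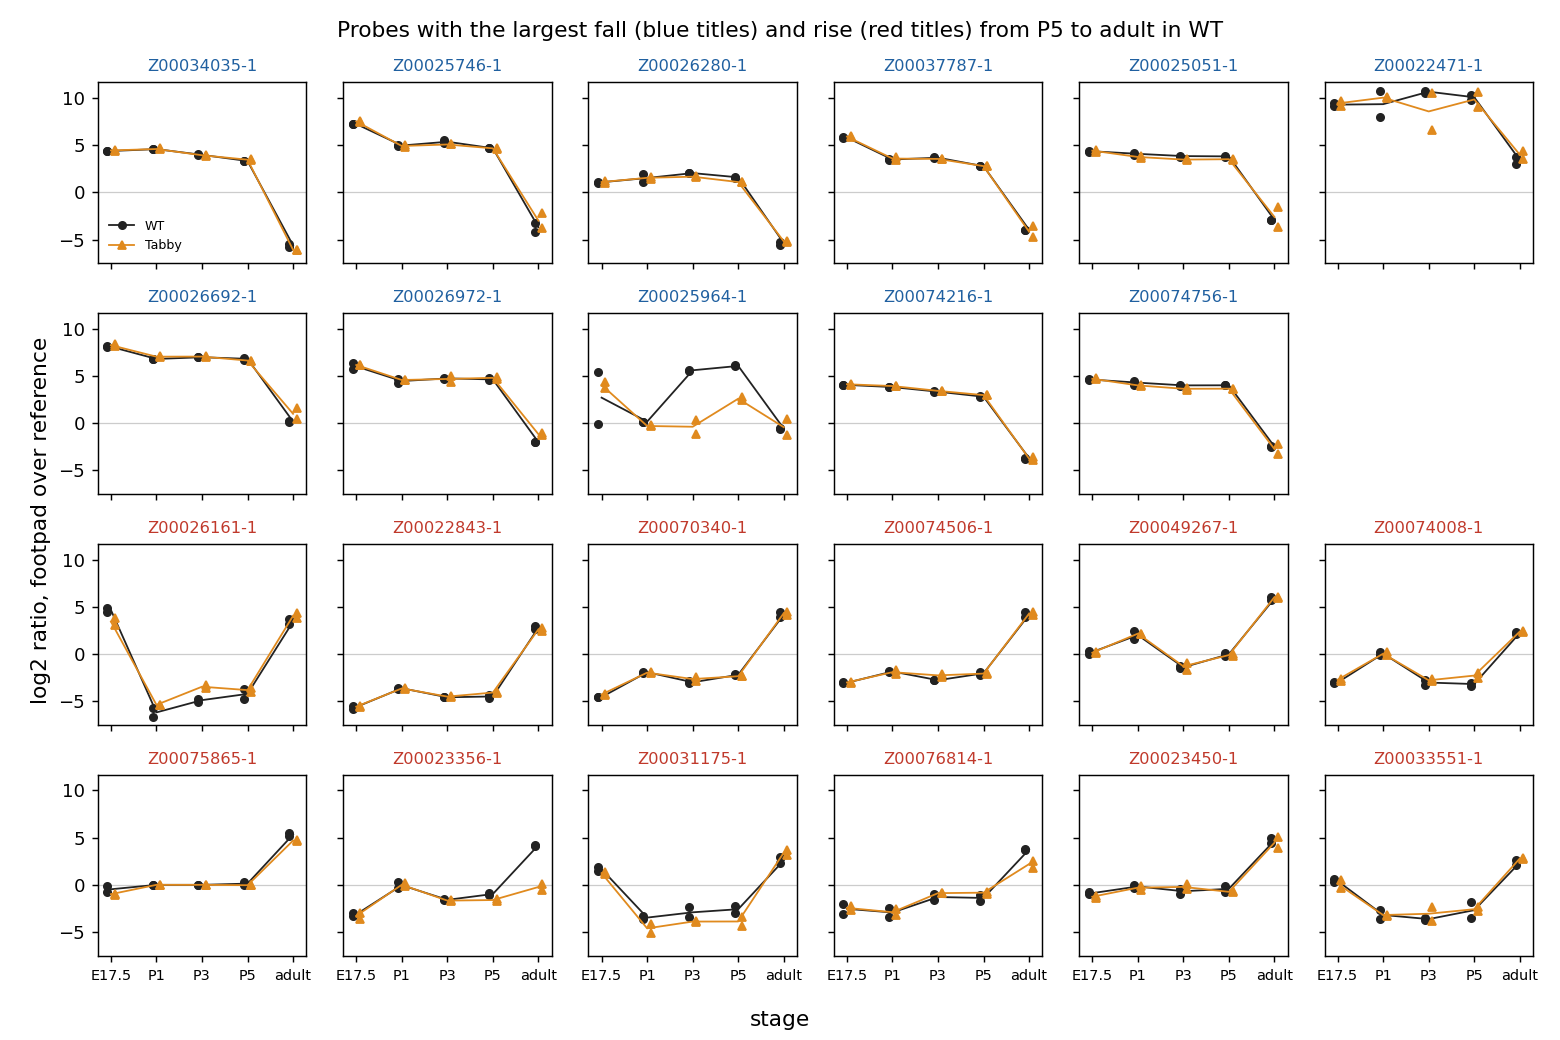
Log2 ratio of footpad over reference by stage for 11 of the 12 probes with the largest fall (upper panels) and the 12 with the largest rise (lower panels) from P5 to adult in WT, with a point for each array and a line through the group means of WT and Tabby. The WT and Tabby lines run close together in most panels, and Z00023356-1 ends at 4.27 and 4.15 on the WT adult arrays and at -0.59 and 0.14 on the Tabby ones.

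Other transcripts were measurable at 1 of the 2 ages alone. Of the called probes, 443 were well above background on both adult arrays and neither P5 array, and 552 on both P5 arrays and neither adult array. Of the 552 lost signals, 378 were well above background on all 6 WT arrays of E17.5, P1 and P3 as well, and 21 on none of them. Of the 443 gained signals, 214 were well above background on none of those 6 arrays, and 104 on both E17.5 arrays. Over all tested probes, 82.3% were well above background on all 6, 4.57% on none and 87.7% on both E17.5 arrays. The choice by the P5 arrays favours earlier presence in the lost set and earlier absence in the gained set. Such probes have a bound in place of a fold, taken from the footpad channel against the dimmest signal that counts as well above background. Without swapped dyes the bounds are open to dye bias.

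Z00018229-1 (gattccaggcgttttaggttgaagaatcct in its last 30 bases) was the strongest signal lost. Its log2 ratio was 5.76 and 5.99 at P5 and -5.41 and -4.85 in adults, and it was at least 131-fold lower in adults, with a mean log2 footpad signal of 13.18 at P5 and 6.14 in adults (adjusted p = 3.07e-11). Z00000799-1 was at least 34.8-fold lower, from log2 ratios of 5.70 and 5.75 to -4.64 and -3.98 (adjusted p = 2.67e-08). Z00071978-1, from 9.60 and 9.44 to 1.27 and 1.67, was at least 31-fold lower (adjusted p = 2.35e-07), and Z00040631-1, from 7.19 and 7.08 to -1.21 and -0.70, at least 16.5-fold (adjusted p = 4.73e-09). All 4 had WT means of at least 5.89 at E17.5, P1 and P3, and were well above background on neither Tabby adult array.

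The strongest gained signal was Z00025925-1 (actgagtatcacattgtcccatgttctcaa), with log2 ratios of -4.90 and -5.44 at P5 and of 3.42 and 2.72 in adults. It was at least 12.9-fold higher in adults, with mean log2 footpad signals of 9.87 in adults and 6.15 at P5 (adjusted p = 1.99e-06). Z00041684-1 (tcaaatgattagaccaacgaatcaatgttg) gave 0.00 on both P5 arrays, where its footpad signal was not well above background, and 7.20 and 6.67 in adults, at least 3.79-fold higher (adjusted p = 1.81e-09). Z00051777-1 (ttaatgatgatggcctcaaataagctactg) gave 0.00 and 0.00, then 6.94 and 6.33, at least 3.23-fold higher (adjusted p = 2.06e-11). Z00061259-1 gave 0.00 and 0.00, then 6.96 and 5.90, at least 2.96-fold higher (adjusted p = 1.32e-07). On arrays without a signal well above background such 0.00 values recur, with an SD of 0 between replicates. The adjusted p of such probes thus rests in part on values without replicate spread. None of the 4 gained signals named here was well above background on any Tabby array at P5 or in adults. Of the 443 gained signals, 237 were well above background on both Tabby adult arrays, 142 on 1 and 64 on none. These shares were not counted over all tested probes, and the 2 Tabby adult arrays differed, with 29865 and 27195 probes well above background. For 34 of the 443 the Tabby change was called below the WT change, against 1.91% of all tested probes. The 443 were chosen by their WT values, which favours such calls, so this count describes them and tests nothing.

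Probes that overlap in sequence lie at different places on the array and share their target. Of 564 pairs of tested probes that share at least 30 bases, 296 had both probes called, and in 296 of these the direction was the same. In another 76 pairs 1 probe was called, and in 70 of them the other had the same sign. Among the large falls, Z00025051-1 (3.80 and 3.83 at P5, -2.93 and -2.89 in adults) shares 46 bases with Z00074756-1 (4.01 and 4.02 at P5, -2.49 and -2.44 in adults), among them tctgagttattctctgtctccaccaggagg. Their differences were -6.73 and -6.48. Z00025964-1 shares 32 bases with Z00047655-1, among them gaaaatgggacagccttggcttctcttgta, and the differences were -6.64 and -5.94. Each of these pairs shares a target and is not a pair of independent measurements.

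Set beside the earlier WT stages, adulthood was for most of the called probes outside the range seen before. Of the 9935 called higher, 6552 (65.9%) had both adult arrays above all 8 arrays of E17.5 to P5, and of the 9115 called lower, 6326 (69.4%) had both below. Over all tested probes these shares were 24.4% and 21.9%. For the probes that changed at least 2-fold, the shares were 74.7% (2420 of 3241) among the rises and 84.8% (3619 of 4270) among the falls. The choice of called probes favours such shares, since the P5 arrays enter both counts.

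The probes at least 2-fold lower in adults had nearly level medians until then. From E17.5 to P5 the median log2 ratio went through 0.86, 0.63, 0.90 and 0.87, and in adults it was -0.97. In the probes at least 2-fold higher it was 0.00, 0.00, -0.19 and -0.12 at these ages and 1.40 in adults. The levels before adulthood were not flat for every probe. In 1663 of the 3241 rises (51.3%) and 2438 of the 4270 falls (57.1%), the means of E17.5, P1 and P3 were all within 2-fold of P5, against 66.8% of all tested probes. In 1048 of the rises (32.3%) and 1137 of the falls (26.6%), the adult mean was within 2-fold of that at E17.5. This share was not counted over all tested probes, so these 2 counts only describe the probes.

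**Figure D3:**
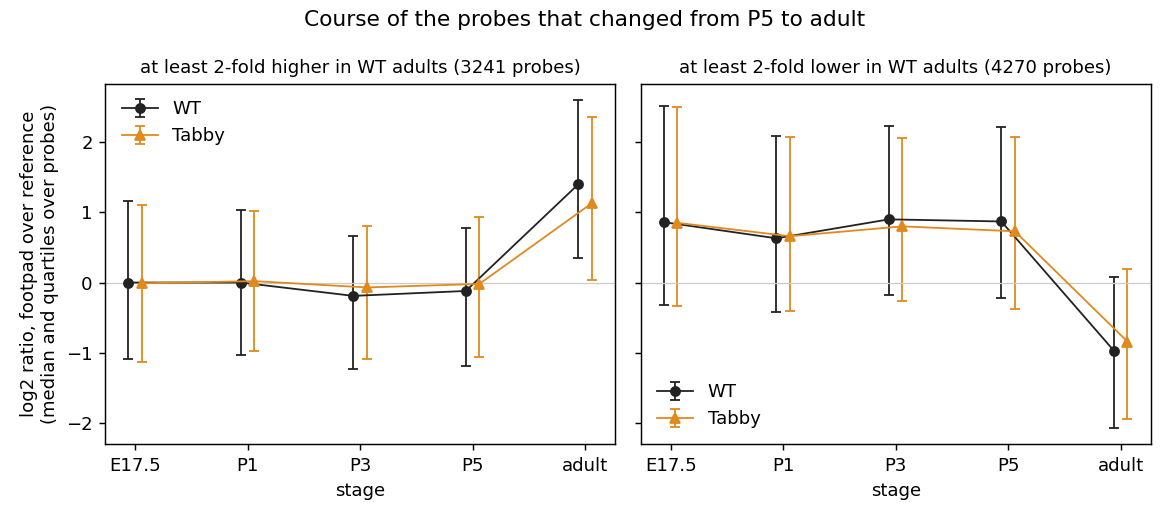
Median log2 ratio of footpad over reference by stage, with quartiles over probes as bars, for the 3241 probes at least 2-fold higher (left) and the 4270 at least 2-fold lower (right) in WT adults than at WT P5. Medians stay between -0.19 and 0.90 up to P5 in WT and reach 1.40 and -0.97 in adults, and the Tabby medians end at 1.13 and -0.84.

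The neighbouring steps of the WT course were smaller on the postnatal side. From P3 to P5, which lie on separate slides scanned on 1 day, 393 probes (1.22%) were called and 142 changed at least 2-fold. From P1 to P3, 7135 probes (22.2%) were called and 1032 changed at least 2-fold. From E17.5 to P1, 20793 (64.7%) were called and 8763 changed at least 2-fold, against 7511 from P5 to adult. The SD of the difference over probes was 1.15, 0.503, 0.361 and 1.12 for the steps in order of age. The steps share arrays with their neighbours, and the 2 large ones are those between slides scanned on different days, so that the days between samples, the slide and the scan day move together.

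In a minority of the falls, P5 itself stood out. Of the 4270 probes at least 2-fold lower in adults, 81 (1.9%) had a P5 mean at least 2-fold above each of the E17.5, P1 and P3 means, against 180 (0.56%) of all tested probes. In the other direction, 18 of the 3241 rises (0.555%) had a P5 mean at least 2-fold below each earlier one. The share of all tested probes with such a low P5 mean was not counted. The 81 fell by a median of 2.62 on the log2 scale in WT and by 0.33 in Tabby. In 60 of the 81 the Tabby P5 mean was at least 2-fold below the WT P5 mean, against 1.42% of all tested probes, and 28 had no Tabby P5 array well above background, against 8.8%. For 47 of the 81 the Tabby change was called above the WT change, against 0.685% of all. The 81 were chosen for a high WT P5 mean, which favours a smaller fall and lower P5 values in Tabby as well as a larger share among the falls, so these counts describe the probes and test nothing.

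Most of these changes were also called in Tabby footpads. In Tabby, 18432 probes (57.4%) differed between adult and P5, 9969 (31%) higher and 8463 (26.3%) lower. Of the 19050 probes called in WT, 15098 were called in the same direction in Tabby and 165 in the opposite one. Of the 7511 called at least 2-fold in WT, 6367 were called in the same direction in Tabby. The WT rises of at least 2-fold had a median of 1.40 in WT and 1.17 in Tabby, and the falls -1.69 and -1.56. Since the probes were chosen by their WT change, a smaller change in Tabby is favoured by the choice.

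Each of the 12 large rises and 11 of the 12 large falls were also called in Tabby. Z00034035-1 had log2 ratios of 3.44 and 3.5 at P5 and of -6.10 and -6.05 in adults in Tabby, and Z00026161-1 -4.06 and -3.57, then 4.31 and 3.79. Z00018229-1, the strongest lost signal, had 6.12 and 5.95, then -5.37 and -4.46. The Tabby means of these 3 lie within 1 log2 unit of the WT means at both ages, though for Z00034035-1 the Tabby fall was called the larger, with a difference of the changes of -0.60 ± 0.11 (SE, adjusted p = 0.0136). That call was lost with normexp and loess values (-0.08, adjusted p = 0.952), with the footpad channel alone (0.202), with array weights (0.0561), with only the 8 P5 and adult arrays (0.215), without WT P5 replicate 1 (0.0642) and without Tabby P5 replicate 2 (0.0631). Z00025964-1 was the exception among the falls, at 2.41 and 2.78 in Tabby P5 and 0.43 and -1.27 in Tabby adults.

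The change from P5 to adult was tested against genotype as Tabby change minus WT change, in which anything that all arrays of a slide share cancels. The test called 833 probes (2.59%). In 613 (1.91%) the Tabby change was below the WT change and in 220 (0.685%) above it. The first set was mostly a rise in WT, beside a smaller rise, no call or a fall in Tabby. In 103 of its probes WT fell and in 115 WT was not called. The median change over the set was 0.74 in WT and -0.52 in Tabby. Of the 613, WT rose in 395, and there Tabby rose too in 138, was not called in 136 and fell in 121. Over the 613, the median of Tabby minus WT was -1.21 in adults and -0.04 at P5, which does not hold for each probe. In Z00016441-1, given under the other observations below, the Tabby P5 arrays stood apart instead. The second set was mostly a fall in WT. Of the 220, WT fell in 179, and there Tabby fell too in 77, was not called in 72 and rose in 30. The median of Tabby minus WT over the 220 was -0.49 at P5 and 0.48 in adults. The count of 833 was 212 with only the 8 P5 and adult arrays in the fit, 495 with array weights, 487 and 547 without WT P5 replicate 1 and 2, 516 without Tabby P5 replicate 1, and 1318 and 3283 without Tabby adult replicate 1 and 2.

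**Figure D4:**
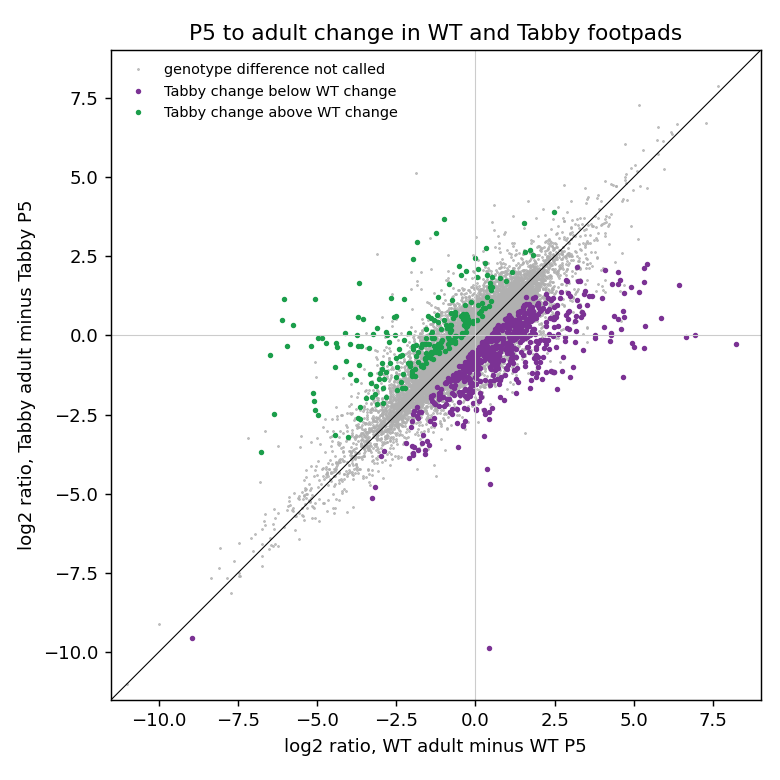
Log2 difference adult minus P5 in Tabby (vertical axis) against that in WT (horizontal axis), a point for each of the 32124 tested probes, with equal changes on the diagonal. The 613 probes with a Tabby change below the WT change (purple) lie mostly at positive WT values, and the 220 with a Tabby change above it (green) mostly at negative ones.

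The rises missing from Tabby included the strongest gained signals, though 237 of the 443 gained signals were well above background on both Tabby adult arrays. Z00025925-1, at 3.42 and 2.72 on the WT adult arrays, had -5.44 and -2.58 on the Tabby adult arrays after -4.01 and -3.47 at P5 (adjusted p of the genotype difference 0.000901). Z00041684-1 and Z00051777-1 gave 0.00 on both Tabby adult arrays (adjusted p = 3e-06 and 1.07e-08). These adjusted p rest in part on 0.00 values, which carry no replicate spread. No Tabby array of P5 or adult was well above background for these 3, so the size of their genotype difference is not measured. Z00022475-1 (tgcctacacttacttgagcagaATTAAAtt) was measured in both genotypes, though only 1 Tabby adult array was well above background, so the size of its difference is less certain. It rose from 0.13 and 0.21 to 5.00 and 4.65 in WT, while Tabby had 0.02 and 0.56 at P5 and -1.69 and -0.34 in adults (-5.96 ± 0.50, SE, adjusted p = 3.8e-05).

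Z00023356-1 rose from -0.89 and -1.05 to 4.27 and 4.15 in WT and from -1.52 and -1.70 to -0.59 and 0.14 in Tabby. The Tabby rise was called too, at 1.38, and the difference of the changes was -3.80 ± 0.37 (SE, adjusted p = 0.000122). Z00027353-1 rose from 1.89 and 1.92 to 6.91 and 7.56 in WT, at least 4.11-fold in the footpad channel, while Tabby had 2.99 and 1.81, then 0.99 and 3.0 (adjusted p = 0.00657). Z00031939-1 had 0.00 and 0.15, then 5.65 and 4.50 in WT, at least 1.66-fold, and 0.00 on both Tabby adult arrays (adjusted p = 4.91e-05). In both, no P5 array of WT was well above background, and the size of the genotype difference is not measured. The adjusted p of Z00031939-1 rests in part on 0.00 values without replicate spread. In Z00023356-1, Z00027353-1 and Z00031939-1 the WT and Tabby adult arrays did not overlap. Their choice by the genotype call favours this, so it describes them and tests nothing. With only the 8 P5 and adult arrays in the fit, the genotype calls of Z00025925-1 and Z00027353-1 were lost (adjusted p = 0.0718 and 0.11), and that of Z00027353-1 also with array weights (0.0565).

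Of the 6 named falls that Tabby lacked, 4 were signals that Tabby did not show at P5. Z00053032-1 (ttactcttttacaatatgcattcactaact) had a log2 ratio of 6.09 on both WT P5 arrays and 0.00 on both WT adult arrays and both Tabby P5 arrays, a WT fall of at least 3.77-fold (adjusted p of the genotype difference 0.000127). Z00056665-1 had 5.78 and 5.75 at WT P5 and -0.07 and -0.59 at Tabby P5, a WT fall of at least 3.18-fold (adjusted p = 8.93e-06). Z00053387-1 had 6.49 and 6.27 at WT P5 and 0.00 on both Tabby P5 arrays, with a WT fall of at least 4.35-fold (adjusted p = 0.00109). Z00056321-1 had 6.28 and 5.05 against 0.00 and 0.00, with a WT fall of at least 4.16-fold (adjusted p = 0.000237). All 4 were well above background on both arrays of WT P5 and on none of Tabby P5 or WT adult. The size of their genotype difference is thus not measured, and their adjusted p rests in part on 0.00 values without replicate spread. With only the 8 P5 and adult arrays in the fit, Z00053387-1 and Z00056321-1 lost the call (adjusted p = 0.0612 and 0.0575).

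Z00026029-1 (actaaggagggcacagtcactgtatacagg) differed from them, as its signal was present in Tabby at both ages. WT had 5.32 and 5.25 at P5 and -2.17 and -0.22 in adults, at least 8.30-fold lower, while Tabby had 5.14 and 5.12 at P5 and 4.41 and 4.63 in adults. The genotype difference had an adjusted p of 0.000466, and of 0.0608 with only the 8 P5 and adult arrays in the fit. Z00047655-1, the overlapping partner of Z00025964-1, had 6.50 and 6.34 at WT P5, 0.35 and 0.61 in WT adults, and between 0.48 and 1.08 on the 4 Tabby arrays (5.60 ± 1.23, SE, adjusted p = 0.0332). That call was lost when most single arrays were left out, WT P5, WT adult and Tabby P5 arrays among them (adjusted p up to 0.117).

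A few probes could be placed on genes. Exact matches of probe sequences to the windows around gene starts from RefSeq (GRCm38.p6) put 259 probes at 1 position, and 108 of these lay in the annotated span of exactly 1 gene on its strand. Of these, 89 probes for 85 genes were tested, 39 were called higher and 10 lower in WT adults, 43.8% and 11.2%, beside 30.9% and 28.4% of all tested probes. Their median difference was 0.38, against 0.06 for all, and their median GC content was 55.0%, against 45%. These probes lie near gene starts and are not a sample of the array. The table used gives gene spans, without exons or untranslated regions, so a placement says in which gene a probe lies and not in which part of its transcript.

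By the log ratio, 9 of the 89 were called at least 2-fold higher and 2 at least 2-fold lower, beside 10.1% and 13.3% of all tested probes. Of the 9, those in Gm36608 and 1 of those in H4c8 had no P5 array well above background, and their rise is bounded at 1.42-fold and 1.39-fold or more. The 2 in Rpl38, a protein of the large ribosomal subunit, overlap and share most of their bases (chr11:114668538-114668597 and chr11:114668526-114668585, plus strand). Z00032009-1 had log2 ratios of -3.57 and -3.38 at P5 and of -2.19 and -2.10 in adults (1.33 ± 0.17, SE, adjusted p = 3.08e-05), and Z00075310-1 -4.51 and -4.37, then -3.35 and -3.14 (1.20 ± 0.19, SE, adjusted p = 0.000202). Both rose by nearly the same amount, and both had higher means at E17.5, -1.41 and -2.19, than at P5. The call of Z00075310-1 was lost when the mean signals were corrected with normexp and loess (0.43, adjusted p = 0.0935). Gnl3, which encodes the nucleolar GTPase nucleostemin (chr14:31019000-31019059, minus strand), rose from -2.40 and -1.83 to -1.08 and -1.12 (1.02 ± 0.20, SE, adjusted p = 0.000959).

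The probe in Abhd6, a lipase that cleaves monoacylglycerols (chr14:8055589-8055648, plus strand), rose from 1.20 and 1.25 to 2.39 and 2.51 (1.22 ± 0.07, SE, adjusted p = 4.5e-08). The 2 probes in H4c8, a gene of the core histone H4, overlap in part by their positions and did not move alike. They share fewer than 30 bases, so they are not among the overlapping pairs counted above. Z00074088-1 (chr13:23531101-23531160) rose from -1.79 and -1.55 to 0.52 and 1.02, at least 1.39-fold (adjusted p = 8.88e-05), while Z00038251-1 (chr13:23531068-23531127) had -0.91 and -0.77, then -0.52 and -0.86 (0.15 ± 0.12, SE, adjusted p = 0.279). Histone H4 is encoded by many near-identical genes, so a probe in one may read others. The non-coding genes Gm4718 (chr17:85799969-85800028, 1.95 ± 0.18, SE, adjusted p = 1.59e-06) and Gm9828 (chr13:98317195-98317254, 1.28 ± 0.08, SE, adjusted p = 1.08e-07) rose on both adult arrays. The calls in Gm36608 (at least 1.42-fold, adjusted p = 0.017) and Cfap410, a protein of cilia (1.25 ± 0.45, SE, adjusted p = 0.0316), were lost without WT P5 replicate 1 (adjusted p = 0.118 and 0.0906) and without WT adult replicate 1 (0.0539 and 0.224). Gm36608 also lost it without WT adult replicate 2 (0.0676) and Cfap410 without WT P5 replicate 2 (0.0999).

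Of the 2 placed falls, Podxl2, which encodes the sialomucin endoglycan (chr6:88842740-88842799, minus strand), fell from 2.03 and 2.04 to 0.22 and 0.12 (-1.86 ± 0.13, SE, adjusted p = 1.93e-07), after WT means of 2.00, 1.82 and 2.07 at E17.5, P1 and P3. It had held this level from before birth to P5. Gm1673 (chr5:33983515-33983574, plus strand) fell from -1.13 and -0.99 to -2.87 and -2.93 (-1.84 ± 0.10, SE, adjusted p = 3e-08). Both fell in Tabby as well, by 1.64 and 1.55 (adjusted p = 6.09e-07 and 1.3e-07).

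Of the 89 placed probes, 1 was called for genotype, beside 2.59% of all tested probes, and it was chosen here after its values were seen. It lies in Tmc4, a member of the transmembrane channel-like family described as a chloride channel (chr7:3665794-3665853, minus strand), and its last 30 bases hold AATAAA.
Z00056199-1: attgaaccgtattAATAAAcaacagtcaag

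Z00056199-1 had log2 ratios of -0.14 and -0.10 at WT P5 and of 0.90 and 0.58 in WT adults, a rise of 0.86 ± 0.13 (SE, adjusted p = 0.000137). Its WT means were -0.75 at E17.5, -0.07 at P1 and -0.09 at P3. In Tabby it had -0.30 and -0.22 at P5 and -0.41 and -0.54 in adults (-0.22, adjusted p = 0.187). The WT adult arrays thus lay above every other group compared here, and the difference of the changes was -1.08 ± 0.19 (SE, adjusted p = 0.00827; 0.0955 with only the 8 P5 and adult arrays in the fit). The probe also crosses the start of the neighbouring gene Leng1 on the same strand, from position -12 to 47 around that start. Its signal thus cannot be assigned to Tmc4 alone, and which of these genes it reads was not tested.

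**Figure D5:**
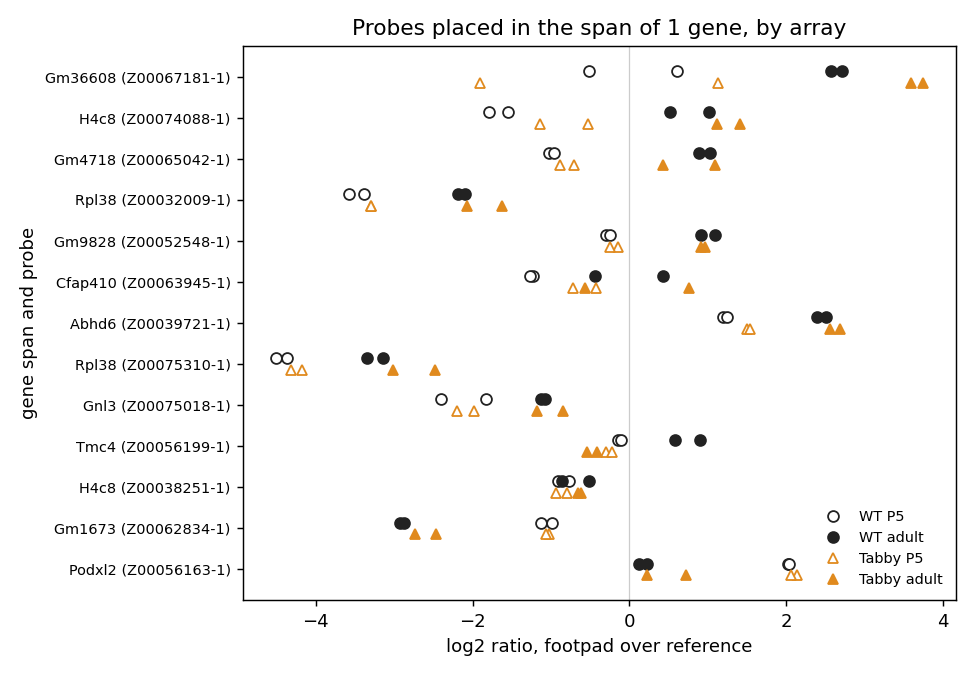
Log2 ratio of footpad over reference on each WT and Tabby array at P5 (open) and in adults (filled) for the placed probes called at least 2-fold, for both probes in H4c8 and for the probe in Tmc4. WT and Tabby moved alike in most rows. For the probe in Tmc4, which also crosses the start of Leng1, the WT adult arrays were at 0.90 and 0.58. They stand apart from the Tabby adult arrays at -0.41 and -0.54.

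The probes that fell also differed in their base composition. Their median GC content was 41.7% for falls of at least 2-fold, against 45% for rises of at least 2-fold and for all tested probes. AATAAA or ATTAAA, searched on the probe strand over all 60 bases, was present in 13.1% of the falls (561 of 4270), 8.21% of the rises (266 of 3241) and 10.5% of all. Sorted by GC content, the median difference over probes was -0.13 up to 35%, 0.00 from 35 to 45%, 0.15 from 45 to 55% and 0.26 above 55%. With the footpad channel alone these medians were -0.05, 0.08, 0.28 and 0.41. The part of GC content in the calls was not tested.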

How the data were processed

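Footpad RNA of 20 mouse samples in 10 groups of 2 was measured on two-colour Agilent arrays, read with Agilent Feature Extraction 9.5.1.1 per the file headers. The deposited array files give for each spot the mean and background signals and processed signals, an intensity for each dye with the background subtracted and the dyes normalized. Their log10 ratio, also deposited, is by the labels' dyes that of reference over footpad. The processed intensity of the footpad channel gives each array's median signal, 134.8 to 245.8 over the 10 WT arrays. The deposited value table holds 25030 probes on the log10 scale, with column medians of 2.53 to 2.59, and the authors state neither its direction nor its centring. Against the array files, 64.4% of its probes equalled footpad over reference up to a constant of the probe (within 0.001), and what was done to the others was not tested. It was used as an alternative.

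Each value is minus the deposited log10 ratio in log2 units, with control spots and outlier spots left out and spots of 1 probe averaged. A probe was kept if 2 or more of the 20 arrays had its footpad signal well above background. The filter passed 32126, and 2 of them were missing in a group, leaving 32124. limma 3.58.1 (R 4.3.3, with the data.table package at 1.17.8) fitted 1 coefficient per group to the 20 arrays together, with 10 residual degrees of freedom, a prior SD of 0.123 and 1.75 degrees of freedom behind that prior. Tests were two-sided, with Benjamini-Hochberg adjustment over all tested probes and a threshold of 0.05, and the scripts were tested on simulated data. Tables and figures used Python 3.11.15, pandas 2.3.3 and matplotlib 3.10.9.

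The members and lists were chosen with earlier results of these data known. Named probes are, per direction, the 12 with the largest called difference among those measured at both ages and the 4 largest among those measured at 1 age. Added to these are the 6 largest genotype differences per direction among probes called for genotype. All had the WT adult and P5 arrays separated on the log ratio and on the footpad channel. As the rule was written, it would have ranked named genes first. Since 0 probes carry a gene name, both the ranked probes and the placed probes called at least 2-fold are given, and no gene list was used. The values of 1 of the 12 falls are not reported here. The deviations of same-numbered replicates correlated at -0.00199 between WT adult and WT P5, -0.0267 between Tabby adult and Tabby P5, -0.0192 between WT P5 and Tabby P5 and 0.138 between WT adult and Tabby adult. Not every pair was above the limit of 0.1, so the numbers were not taken to pair the samples. Alternatives were the normexp and loess values, the footpad channel alone, the value table, other scalings, fits, filters and single arrays left out.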

Additional observations from a re-analysis of the deposited data

Results flagged for a closer look

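The change from P5 to adult differed between Tabby and WT, by the test of the difference itself, for 833 probes and for 16 of the probes named above. This difference between the groups is what set them apart, and groups of 2 are too small to look for a single array far from the others. The differences, Tabby change minus WT change on the log2 scale, were -8.50 for Z00025925-1, -6.94 for Z00041684-1, -6.69 for Z00051777-1, -5.96 for Z00022475-1, -5.73 for Z00027353-1, -5.35 for Z00031939-1, -4.83 for Z00061259-1 (limma adjusted p = 0.0978 with only the 8 P5 and adult arrays), -3.80 for Z00023356-1, -1.08 for Z00056199-1 and -0.60 for Z00034035-1. In the other direction they were 7.20 for Z00053387-1, 6.58 for Z00053032-1, 6.20 for Z00056321-1, 6.10 for Z00056665-1, 5.87 for Z00026029-1 and 5.60 for Z00047655-1. For 9 of these, Z00025925-1, Z00041684-1, Z00051777-1, Z00061259-1, Z00031939-1, Z00053387-1, Z00053032-1, Z00056321-1 and Z00056665-1, 1 WT age and the Tabby group they are set against had no array well above background, so these numbers are fitted values and not measured folds. The same holds in part for Z00027353-1 and Z00026029-1, each with no array well above background at 1 WT age. For Z00022475-1 only 1 Tabby adult array was well above background. WT took positions 1 and 2 and Tabby positions 3 and 4 on every slide, so that genotype and position cannot be told apart.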

How the results depend on the processing

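The count of 19050 called probes stayed within 1.5 times of itself under every alternative run, from 12726 with the deposited value table, which holds fewer probes, to 20071 without Tabby adult replicate 2, and 16198 was the lowest without 1 array. The share called higher was 52.2%, 51.1 to 52.4% without 1 array, 58.1% with the footpad channel alone, and below an even split, at 49.7%, with the deposited value table, for which the cause was not tested. The genotype count of 833 was 212 with only the 8 P5 and adult arrays, 495 with array weights and 487 to 3283 without 1 array. A fit of the 10 WT arrays gave no genotype value. The count of called probes with adult arrays beyond all 8 earlier ones, 12878, was 11579 to 13651 without 1 array and 8600 with the value table. With the replicate numbers as a block, 19106 probes were called in WT, 52.2% of them higher, 816 were called for genotype and 12875 lay beyond all earlier arrays, so the block moved no count by over 1.5 times. Of 2128 values of named probes under alternatives, 2093 kept their direction and their side of the threshold, 35 lost the call and 0 reversed. Most lost calls were genotype calls of Z00047655-1 and Z00034035-1. Precision is limited by having 2 arrays in each group, and a group left with 1 array is assumed to vary like the others.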

Other observations

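Outside the rule for named probes, and chosen after its values were seen, Z00016441-1 had the largest genotype difference of all tested probes, -10.3 (limma adjusted p = 0.0332). Its log2 ratio was -9.14 and -9.43 at WT P5, -9.86 and -7.82 in WT adults, 0.89 and 0.93 at Tabby P5 and -9.09 and -8.81 in Tabby adults. The Tabby P5 arrays thus stood apart from the other 6.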
